A study of Mus musculus with 81 samples.

Results

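TCRBV15 is 1 of the 31 V families of the T-cell receptor β chain that held at least 1 template in these data, and it is made up of 1 gene, TCRBV15-01. It was followed here across blood and tumors of mice that received antigen-presenting red blood cells. Its members were chosen by name, as every deposited row whose V segment was resolved to TCRBV15, which gave 22387 of 581514 rows and 281357 of 1365685 templates. Of the 22387 rows, 12710 were in frame, 9448 were out of frame and 229 held a stop codon. The in-frame rows were divided into those with the CDR3 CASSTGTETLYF (189 rows, 247801 templates), those with the CDR3 of the transferred OT-1 cells, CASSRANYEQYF (25 rows), and all others (12496 rows, 19341 templates). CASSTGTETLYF was singled out because its abundance in tumors was already known, so its levels in tumors are given as a description, with no test.

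The mice were female Pep Boy (B6.SJL-Ptprca Pepcb/BoyJ) animals, whose age is not given in the sources used here. In the treatment experiment, 15 mice bore subcutaneous tumors of EG7.OVA, a subline of the murine T-cell lymphoma EL4 that makes ovalbumin (OVA). All received 1e6 naive OT-1 cells, which carry a transgenic receptor against OVA. Dosing on days 0 and 3 divided them into 3 groups of 5. The control group was given 1e9 unmodified mouse red blood cells (mRBC-CTRL). The other two, named below by their dose of 2.5e8 or 1e9, were given engineered red blood cells that carry OVA, 4-1BBL and IL-12 (mRBC-OVA-4-1BBL-IL-12). Blood was taken on day 0, after the OT-1 transfer and before dosing, and on day 7 together with the tumor, so that 15 libraries came from tumors and 28 from blood. Mouse 1 of mRBC-CTRL has no day 7 blood library among those analysed here, and mouse 1 of 1e9 no day 0 library. In the rechallenge experiment, 7 mice had been cured of EG7.OVA after 1e6 OT-1 cells and the 2.5e8 dose, and were challenged again with EG7.OVA and later with EL4. Blood was drawn from them before (day 65) and after (day 73) the second EG7.OVA injection, and again 1 day before and 9 days after EL4 was given. Blood of 5 age-matched naive mice, which received 5e5 OT-1 cells and EG7.OVA, was sampled on days 65 and 73. These 38 libraries hold no tumor. The genomic DNA of all 81 libraries held rearranged β-chain genes that were counted as templates, that is, as copies of a rearrangement in the DNA. Libraries held 2623 to 81909 templates, of which 2355 to 77041 were in frame.

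The β chain of a T-cell receptor is assembled in the thymus from a V, a D and a J segment. Bases are trimmed from and added to their ends at the joints, so the resulting CDR3, the loop that contacts peptide and MHC, differs between nearly all T cells, and a single rearrangement found many times marks cells descended from 1 cell. Out-of-frame rearrangements encode no chain and persist in cells whose other chromosome holds a productive one. In RefSeq (table for the assembly GRCm38.p6), the gene is Trbv15, with the older name Tcrb-V12 (Vβ12), and it lies between Trbv14 and Trbv16 in the β-chain locus. The older name should not be taken for TCRBV12, the family that the OT-1 receptor uses. The deposited rows hold no genome coordinates and none are given here.

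The most abundant rearrangement with the CDR3 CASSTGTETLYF joined TCRBV15-01 to TCRBJ02-03. It had lost 5 bases of the V segment and 4 of the J segment and held 3 added bases at the V-D joint. Each deposited read spans 87 bases and ends within the J segment. In the sequences below, bases between the retained V and J segments are in capitals. The main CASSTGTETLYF rearrangement is shown first and the main OT-1 rearrangement second, as the other dominant clone of these tumors. The third is a near copy of the main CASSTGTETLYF rearrangement that was found in all tumors, and the fourth carries the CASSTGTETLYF junction on TCRBV16.
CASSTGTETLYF main: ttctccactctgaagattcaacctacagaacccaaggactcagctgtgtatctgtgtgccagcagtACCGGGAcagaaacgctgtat
OT-1 main: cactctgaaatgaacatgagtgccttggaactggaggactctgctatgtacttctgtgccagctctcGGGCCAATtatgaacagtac
near copy in all 15 tumors: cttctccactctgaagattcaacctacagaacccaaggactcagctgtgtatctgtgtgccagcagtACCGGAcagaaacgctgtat
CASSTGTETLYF junction with TCRBV16: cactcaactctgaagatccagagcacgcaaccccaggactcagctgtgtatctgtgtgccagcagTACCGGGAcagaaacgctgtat

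The main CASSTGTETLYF rearrangement, called the shared tumor clone here, was found in 15 of 15 tumors and made up 247534 of their 518001 in-frame templates. In mRBC-CTRL tumors, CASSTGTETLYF held 53.8, 63.2, 50.0, 73.4 and 79.4% of in-frame templates (mice 1 to 5), with a mean of 64.0% ± 12.5 (SD, n = 5). At 2.5e8 it held 24.0, 26.3, 49.1, 7.60 and 22.9%, with a mean of 26.0% ± 14.9 (SD, n = 5). At 1e9 it held 1.71, 1.45, 2.16, 5.28 and 0.737%, with a mean of 2.27% ± 1.76 (SD, n = 5). By this share the 3 groups of tumors did not overlap: the lowest mRBC-CTRL tumor was above the highest at 2.5e8, and the lowest at 2.5e8 was above the highest at 1e9. Over the same tumors, OT-1 ran the other way, from 5.21 to 14.5% of in-frame templates (mRBC-CTRL) through 17.1 to 57.7% (2.5e8) up to 65.9 to 85.8% (1e9). Both are shares of 1 total, and a share does not tell fewer cells of a clone from more cells of another. With OT-1 left out of the total, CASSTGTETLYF held 56.3 to 83.8% in mRBC-CTRL tumors. It then held 9.16 to 67.1% at 2.5e8 and 3.37 to 24.5% at 1e9, so that 2.5e8 overlapped both other groups. Within TCRBV15, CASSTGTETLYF took 94.5 to 99.8% of in-frame templates in tumors of mRBC-CTRL mice, whereas the 2.5e8 tumors lay at 94.9 to 99.5% and the 1e9 tumors at 71.7 to 95.2%. For each OT-1 template, mRBC-CTRL tumors held 4.36 to 15.02 templates of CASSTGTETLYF, those at 2.5e8 held 0.398 to 1.83, and those at 1e9 held 0.00944 to 0.0674. The receptor of EG7.OVA is not given in the sources used here, and whether the clone consists of lymphoma cells was not tested.

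**Figure D1:**
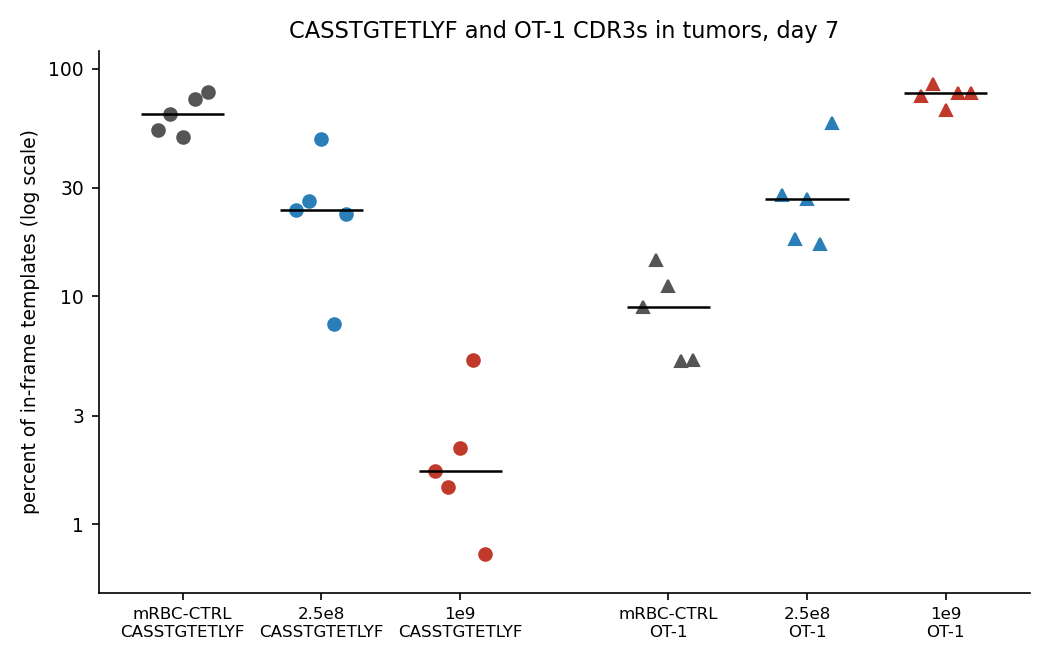
Share of in-frame templates (%) held by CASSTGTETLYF and by OT-1 in each tumor library, by arm. Each point is 1 mouse and the black line is the median of 5 tumors. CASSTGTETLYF runs from 50.0 to 79.4% in mRBC-CTRL tumors and from 0.737 to 5.28% at 1e9, while OT-1 runs the other way, from 5.21 to 14.5% and from 65.9 to 85.8%.

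In blood, the shared tumor clone was close to the detection limit. Its main rearrangement was counted once in mRBC-CTRL mouse 2 on day 0 and once in 2.5e8 mouse 3 on day 7, which is 2 of 209927 in-frame templates in the 28 blood libraries of the treatment experiment. It was counted 0 times among the 349826 in-frame templates of the 38 rechallenge libraries, which allows a pooled share of up to 0.000858% (3 templates). Single blood libraries allow a share of 0.0132 to 0.127% at 3 templates. These limits cover counting error only. The same 12 amino acids were also read once in the blood of naive mouse 5 on day 73, with TCRBV12-02, and once in the day 0 blood of mRBC-CTRL mouse 1, with TCRBV19. The junction with TCRBV12 differed from that of the shared tumor clone at several bases, so the CDR3 alone does not identify the clone. The junction with TCRBV19 differed from that of the clone at only 1 base. The unchanged junction of the clone was also read on TCRBV19, with 17 templates in 9 tumors. Whether the TCRBV19 read in blood arose separately from the clone was not tested. The sequences of both blood reads were:
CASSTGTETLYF in blood with TCRBV12: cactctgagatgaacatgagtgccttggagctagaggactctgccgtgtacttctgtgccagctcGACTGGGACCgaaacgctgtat
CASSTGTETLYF in blood with TCRBV19: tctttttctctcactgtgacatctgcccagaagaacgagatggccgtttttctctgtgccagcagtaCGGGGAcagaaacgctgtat

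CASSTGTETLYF was written by 86 different nucleotide forms in the 81 libraries. Apart from the main one, 49 forms were assigned to TCRBV15 and held 265 templates in all, and 36 forms were assigned to 14 other V families and held 254. Of these 14, TCRBV16 held the most templates (63), followed by TCRBV04 (41). In all, 81 of the 85 further forms lay near the main rearrangement, where near means at most 3 substitutions, insertions or deletions, or the same last 30 bases. The 4 forms that were not near it held 13 templates, namely the 2 blood rearrangements shown above and 2 forms on TCRBV16 that were seen in tumors with 11 templates. The larger of these TCRBV16 forms, with 10 templates in 7 tumors, carried the same bases between V and J as the clone. It missed the rule of the last 30 bases only in their V part. Of the 86 forms, 50 were found in at least 2 libraries. The 3 most frequent of them after the main one were all on TCRBV15, with 42, 27 and 21 templates, in 12, 10 and 12 tumors and in 0 blood libraries.

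Counting rows of any frame, near copies on TCRBV15 numbered 323 rows of 88 forms, with 495 templates, of which 494 were in tumors. No such row held more than 9 templates. They were in frame in 278 templates and out of frame or with a stop codon in 217. The junction of the clone on other V segments, as in the TCRBV16 sequence above, held 241 templates, all of them in tumors. In turn, the OT-1 junction was found on TCRBV15 in 27 templates, of which 23 were in tumors. Tumors with more of the main rearrangement mostly held more near copies, but not in proportion to it. Per 1000 templates of the main rearrangement, the tumors with at least 1000 of them held 1.195 to 6.59 templates that were within 3 edits of it, the lowest in mRBC-CTRL mouse 5 with 61067 main templates and the highest in 1e9 mouse 4 with 1366. For OT-1 the same measure was 2.75 to 10.1 per 1000. Substitutions alone were rare, since rows that differed by 1 or 2 of them held 11 templates in all 81 libraries for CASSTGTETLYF and 34 for OT-1.

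**Figure D2:**
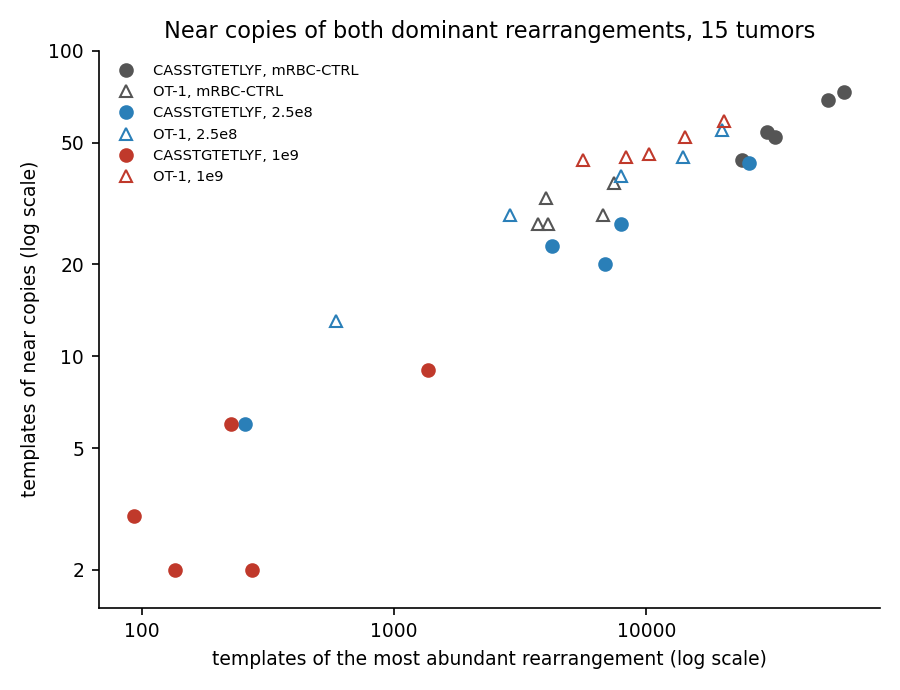
Templates of near copies (within 3 edits) of the main rearrangement in each tumor, with both axes on log scales. The horizontal axis is templates of the main rearrangement for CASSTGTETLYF and all in-frame templates with the OT-1 CDR3 for OT-1. Filled circles are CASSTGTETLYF, open triangles are OT-1, and colours are the arms. Points of the 1e9 arm lie at 2 to 9 near copies of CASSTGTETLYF and those of mRBC-CTRL at 44 to 73.

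The copy that was found in all 15 tumors, the third sequence above, is out of frame: its junction reads ACCGGA in place of ACCGGGA. It held 38 templates in all and was absent from the blood libraries. Across all V families, 11 rearrangements were found in all 15 tumors. They were the main forms of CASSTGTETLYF and OT-1, this copy and 8 near copies of OT-1. A further 20 non-productive TCRBV15 rearrangements were found in at least 3 tumors. Together the 21 held 207 templates, lay 2 or 4 edits from the main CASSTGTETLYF rearrangement and were seen in 0 blood libraries. Thus no non-productive TCRBV15 rearrangement shared by 3 or more tumors stood far from the main form.

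CDR3s that differed from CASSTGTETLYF by 1 amino acid were few, 19 CDR3s with 48 templates in all. The 3 with the most templates, with positions counted from the cysteine as 1, were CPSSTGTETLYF (A2P), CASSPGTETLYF (T5P) and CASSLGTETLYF (T5L). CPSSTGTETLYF held 9 templates in 4 tumors, all on TCRBV15 and all near copies of the main rearrangement. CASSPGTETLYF held 5 templates in 4 libraries and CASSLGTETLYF held 4 in 3 libraries, and neither was on TCRBV15. Of the 48 templates, 11 were on TCRBV15, and all 11 were near copies.

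The T cells that used TCRBV15 with any other CDR3 were then compared between arms. Their share was taken of in-frame templates without OT-1 and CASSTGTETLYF, called the remaining templates. In mRBC-CTRL tumors it was 1.43, 16.6, 3.42, 1.37 and 1.26% (mice 1 to 5; 4.81% ± 6.63, SD, n = 5). At 2.5e8 it was 1.69, 0.837, 1.08, 0.541 and 1.397% (1.11% ± 0.452, SD, n = 5). At 1e9 it was 3.03, 1.92, 0.669, 1.58 and 1.32% (1.70% ± 0.871, SD, n = 5). The arms overlapped, and 1 tumor, that of mRBC-CTRL mouse 2, stood far above the other 14.

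The difference between 2.5e8 and mRBC-CTRL tumors was a log2 fold change of -2.11 (SE 0.76; edgeR's quasi-likelihood test, adjusted p = 0.0505), and edgeR called 2 of 20 families in this comparison (10%). That between 1e9 and mRBC-CTRL was -1.50 (SE 0.77; edgeR, adjusted p = 0.157). Here edgeR called 0 of 18 families (0%), with 5 at an unadjusted p under 0.05, and DESeq2 called 3. Between 1e9 and 2.5e8 the change was 0.60 (SE 0.51; edgeR, adjusted p = 0.478), with 0 of 18 families called (0%), 2 at an unadjusted p under 0.05 and 0 by DESeq2. None of the 3 differences in TCRBV15 passed the threshold. Exact permutation tests of the share gave p = 0.0952, 0.397 and 0.214 in the same order (the smallest these groups allow is 0.00794). DESeq2 gave adjusted p = 0.0221 for 2.5e8 against mRBC-CTRL and 0.0375 for 1e9. Both differences from mRBC-CTRL rest in large part on mRBC-CTRL mouse 2, without which they were -0.75 and -0.14. When each rearrangement was counted once, the shares were 3.27% ± 0.307, 3.04% ± 0.235 and 2.90% ± 0.619 in mRBC-CTRL, 2.5e8 and 1e9 tumors (SD, n = 5 each), and the exact permutation tests gave p = 0.214 and 0.254 for 2.5e8 and 1e9 against mRBC-CTRL and 0.651 between the doses.

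**Figure D3:**
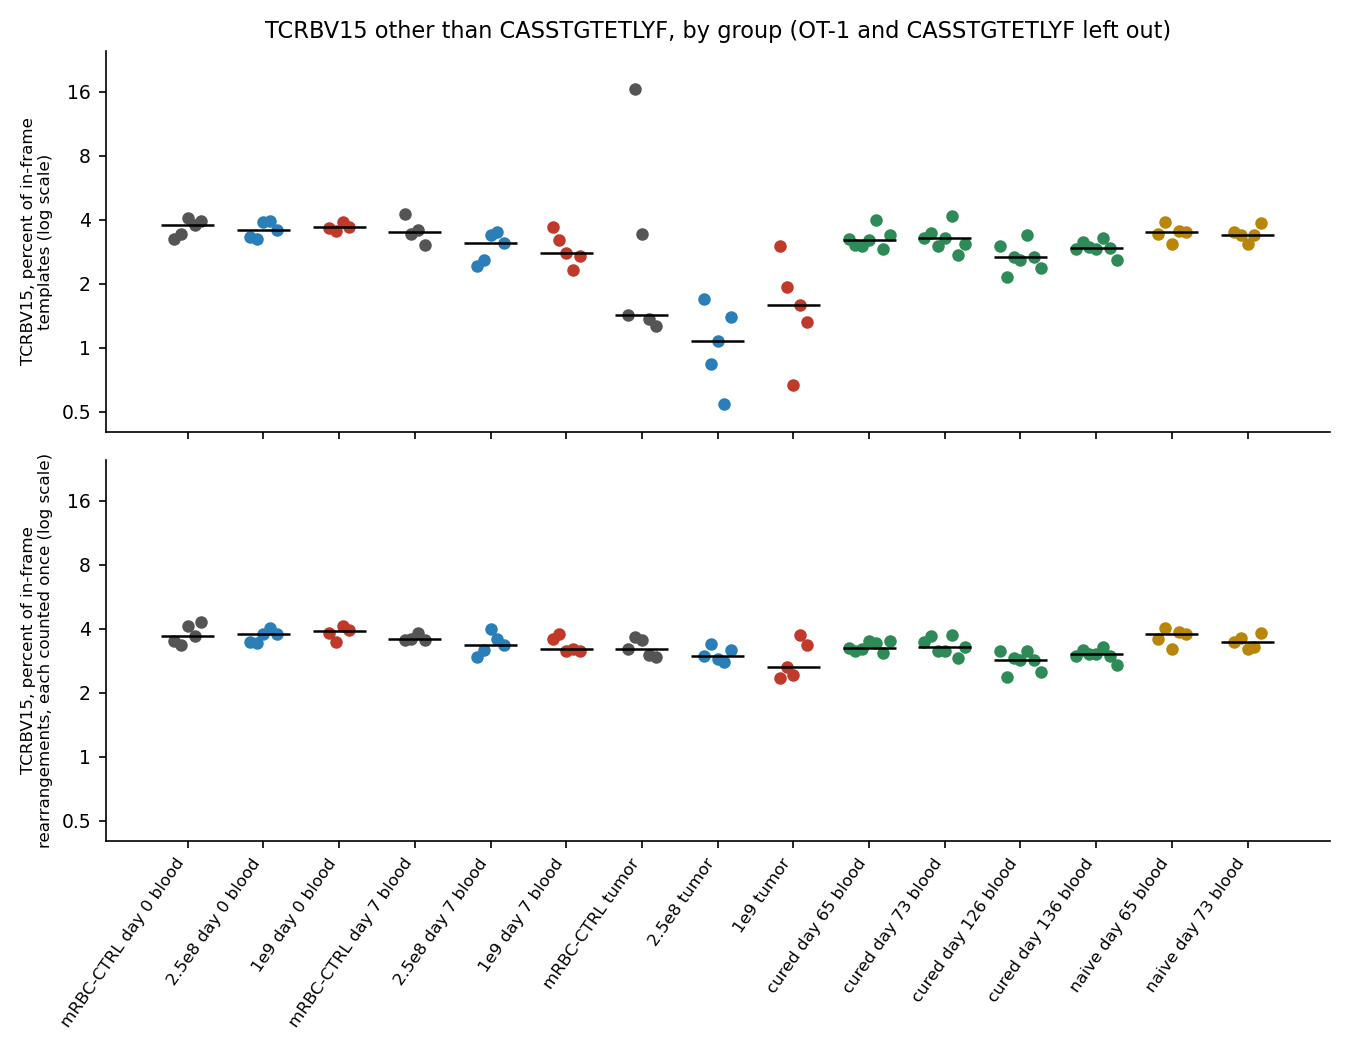
Share of TCRBV15 (%) without OT-1 and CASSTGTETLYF, in every library by tissue, group and day, on log scales. The upper panel is of in-frame templates and the lower panel of in-frame rearrangements, each counted once. Each point is 1 library and black lines are medians. In the upper panel, blood libraries lie between 2.15 and 4.24%, and most tumors lie below them, with mRBC-CTRL mouse 2 at 16.6%. In the lower panel, tumors lie between 2.34 and 3.75%.

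In 3 of 15 tumors a single rearrangement held 44.4 to 92.6% of the TCRBV15 templates other than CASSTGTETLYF, and in the other 12 the largest held 4.31 to 28.3%. The largest TCRBV15 rearrangements other than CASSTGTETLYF in the tumors of each arm and in blood are shown as the largest single contributions to these shares; capitals again mark the bases between V and J.
largest other TCRBV15, mRBC-CTRL tumor: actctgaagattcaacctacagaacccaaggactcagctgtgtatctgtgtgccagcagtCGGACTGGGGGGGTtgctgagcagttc
largest other TCRBV15, 2.5e8 tumor: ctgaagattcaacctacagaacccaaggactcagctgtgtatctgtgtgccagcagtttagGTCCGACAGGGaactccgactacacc
largest other TCRBV15, 1e9 tumor: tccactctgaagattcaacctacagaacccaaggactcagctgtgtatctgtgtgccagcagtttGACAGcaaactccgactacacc
largest other TCRBV15, blood: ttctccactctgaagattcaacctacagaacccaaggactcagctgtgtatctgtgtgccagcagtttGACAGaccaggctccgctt

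The first of them, joined to TCRBJ02-01, was found in mRBC-CTRL mouse 2. Its CDR3 held 1764 templates in the tumor of this mouse, 15.4% of the remaining templates (95% Wilson interval 14.7 to 16.03%). It held 50 templates in the day 7 blood (0.851%, 0.646 to 1.12%) and 0 of 4953 in the day 0 blood, which allows a share of up to 0.0606%. The rearrangement was in no other mouse. The second, joined to TCRBJ01-02, held 66 templates in the tumor of 2.5e8 mouse 1 (0.479%, 0.376 to 0.608%) and was not detected in its blood, where 3 templates would be 0.0404% on day 0 and 0.0818% on day 7. The third, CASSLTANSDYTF with TCRBJ01-02, held 62 templates in the tumor of 1e9 mouse 1 (2.08%, 1.63 to 2.66%) and 22 in its day 7 blood (0.491%, 0.325 to 0.742%). This rearrangement was also in 1 other mouse, and its CDR3 in 3 others.

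The largest in blood was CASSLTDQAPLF with TCRBJ01-05, in cured mouse 5. It held 56, 54, 48 and 43 templates on days 65 and 73 and before and after EL4, which is 0.667, 1.08, 0.402 and 0.194% of the remaining templates. It was in no other mouse, and its intervals at the last 3 time points do not overlap. In all, 3 TCRBV15 CDR3s reached 1% of the remaining templates in a tumor and 1 did so in a blood library. Besides the CDR3s of mRBC-CTRL mouse 2 and 1e9 mouse 1, the tumor of mRBC-CTRL mouse 3 held such a CDR3, whose main form took 358 of the 807 other TCRBV15 templates.

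Within mice, the TCRBV15 share of the remaining templates was lower in the tumor than in the day 7 blood in 12 of 14 mice. The median was 1.38% in tumors and 3.15% in day 7 blood, and the means were 2.62% ± 4.09 and 3.14% ± 0.540 (SD, n = 14). The log2 fold change was -0.94 (SE 0.26; edgeR with the mouse as a block, adjusted p = 0.00217). Of the families tested, 9 of 18 were called here (50%), and 8 of these 9 were lower in tumors, with a median log2 fold change of -0.57 over the 18 families. A lower fold change than that of TCRBV15 was found in 3 of 18 families. The median over the families was 0.012 with TMM normalization and 0.083 with DESeq2, each with 2 families called. The call depended on how the data were fitted: TMM normalization gave -0.39 (adjusted p = 0.435), DESeq2 -0.32 (adjusted p = 0.470) and the exact sign-flip test of the difference in share p = 0.787. Mouse 2 of mRBC-CTRL was 1 of the mice with a higher share in the tumor. Counting each rearrangement once, the share was 3.06% ± 0.435 in tumors and 3.46% ± 0.304 in day 7 blood (SD, n = 14; exact sign-flip test, p = 0.0288), and it was lower in 9 of 14 mice.

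By arm, the share fell short of that in day 7 blood in 5 of 5 mice at 2.5e8 (1.11 against 3.00%) and in 5 of 5 at 1e9 (1.70 against 2.94%), with the exact sign-flip test at p = 0.0625 in both, the smallest that 5 pairs allow. It was lower in 2 of 4 mRBC-CTRL mice (5.65 against 3.57%, p = 0.875, exact sign-flip test). The change from blood to tumor did not pass an exact permutation test between any pair of arms (p = 0.183 to 0.492). TCRBV15 rearrangements of the tumor were seldom found in the blood of the same mouse. Among in-frame rearrangements without OT-1 and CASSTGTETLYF, tumors held 10 to 146 on TCRBV15. Of these, 0 to 7 were also in the day 7 blood, which is 0 to 18.2% of those in a tumor, beside 3.29 to 16.4% for all V families. Sharing with blood depends on the depth of both libraries and was not compared between arms.

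In blood, TCRBV15 was the family with the 13th highest share of 20, with a mean of 3.27% ± 0.474 over 66 libraries (SD). On day 0, before dosing, it was 3.25, 3.43, 4.08, 3.79 and 3.93% in mRBC-CTRL mice 1 to 5. It was 3.33, 3.26, 3.91, 3.95 and 3.58% in 2.5e8 mice 1 to 5 and 3.65, 3.55, 3.92 and 3.72% in 1e9 mice 2 to 5. On day 7 it was 4.24, 3.42, 3.57 and 3.04% in mRBC-CTRL mice 2 to 5, 2.43, 2.59, 3.38, 3.50 and 3.11% in 2.5e8 mice 1 to 5 and 3.71, 3.20, 2.78, 2.33 and 2.70% in 1e9 mice 1 to 5. The groups overlapped on both days, and the lowest values of this experiment were those of day 7 in mice given the engineered cells.

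From day 0 to day 7 the share was lower in 5 of 5 mice at 2.5e8, with a mean change of -0.603 percentage points, and in 4 of 4 at 1e9, with a mean change of -0.960. It was lower in 3 of 4 mRBC-CTRL mice, with a mean change of -0.245. These numbers of pairs allow no smaller p than the 0.0625 and 0.125 that the exact sign-flip test gave at 2.5e8 and 1e9. In edgeR with the mouse as a block, the log2 fold changes were -0.28 (adjusted p = 0.360) at 2.5e8, -0.45 (adjusted p = 0.359) at 1e9 and -0.09 (adjusted p = 0.749) in mRBC-CTRL mice. The families called were 2 of 20 (10%), 4 of 18 (22.2%) and 1 of 20 (5%), and TCRBV15 was not among them. Set against the control arm, the change at 1e9 was more negative (difference -0.715 percentage points, p = 0.171 by exact permutation, adjusted p = 0.333 over 7 such differences).

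Between arms on day 7, TCRBV15 was 2.94% ± 0.528 (SD, n = 5) at 1e9, 3.00% ± 0.477 (SD, n = 5) at 2.5e8 and 3.57% ± 0.5002 (SD, n = 4) in mRBC-CTRL mice. The log2 fold change against mRBC-CTRL was -0.27 (SE 0.23; edgeR, adjusted p = 0.477) at 1e9, where 2 of 19 families were called (10.5%). At 2.5e8 it was -0.26 (SE 0.16; edgeR, adjusted p = 0.2999), with 0 of 20 families called (0%), 5 at an unadjusted p under 0.05 and 2 by DESeq2. Exact permutation tests of the share gave p = 0.127 and 0.159. The denominator matters at 1e9, where OT-1 fills most of the day 7 blood. As a share of all in-frame templates, all of TCRBV15 was 1.06% ± 0.291 (SD, n = 5) at 1e9 and 3.43% ± 0.394 (SD, n = 4) in mRBC-CTRL mice.

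In the rechallenge experiment, the share in cured mice 1 to 7 on day 65 ran from 2.91 to 4.00%, with a median of 3.20%. In naive mice 1 to 5 it was 3.43, 3.92, 3.08, 3.54 and 3.52%. On day 73 the cured mice lay between 2.72 and 4.15%, with a median of 3.27%, and the naive mice were at 3.49, 3.40, 3.08, 3.39 and 3.87%. Cured and naive mice overlapped on both days. The log2 fold change was -0.11 (SE 0.09; edgeR, adjusted p = 0.473) on day 65, with 0 of 20 families called (0%), 2 at an unadjusted p under 0.05 and 0 by DESeq2. On day 73 it was -0.08 (SE 0.12; edgeR, adjusted p = 0.745), with 0 of 20 families called (0%), 5 at an unadjusted p under 0.05 and 0 by DESeq2. Cured and naive mice also differ in the number of OT-1 cells they received, in earlier tumors and in dosing, which cannot be told apart. With each rearrangement counted once, the share on day 65 was 3.30% ± 0.181 (SD, n = 7) in cured and 3.69% ± 0.304 (SD, n = 5) in naive mice (exact permutation test, p = 0.0227), and on day 73 it was 3.35% ± 0.304 and 3.48% ± 0.252 (exact permutation test, p = 0.429). Neither p is adjusted for the number of comparisons. With rearrangements counted once, edgeR called 0 of 20 families on day 65, with 3 at an unadjusted p under 0.05.

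In the share of remaining templates, edgeR with the mouse as a block called no change of TCRBV15 around a challenge. From day 65 to day 73 the log2 fold change was 0.00 in cured mice (SE 0.12; edgeR, adjusted p = 0.967), with 0 of 20 families called (0%), 3 at an unadjusted p under 0.05 and 0 by DESeq2. In naive mice it was -0.02 (SE 0.07; edgeR, adjusted p = 0.877), with 1 of 19 families called (5.26%). Around the EL4 challenge the share was 2.15 to 3.41% the day before (median 2.68%) and 2.60 to 3.30% 9 days after (median 2.94%). It was higher after EL4 in 5 of 7 mice, with a log2 fold change of 0.13 (SE 0.07; edgeR, adjusted p = 0.630; exact sign-flip test, p = 0.0625). Here 0 of 21 families were called (0%), 1 at an unadjusted p under 0.05 and 0 by DESeq2.

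Because out-of-frame rearrangements encode no chain, the share of TCRBV15 among in-frame templates was set beside its share of out-of-frame templates. In blood, averaged per mouse, TCRBV15 was 3.33% ± 0.334 of in-frame templates without OT-1 and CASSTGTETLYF and 4.72% ± 0.678 of out-of-frame templates (SD, n = 27 mice). The difference was -1.39 percentage points (SE 0.155) and it held in 26 of 27 mice (sign-flip permutation test with 100000 resamples, p = 1e-05, the smallest these resamples can give; adjusted p = 1.75e-05 over 21 families). The exception was 1e9 mouse 1, with 3.71 against 3.30%. Such a difference was common: 16 of the 21 families passed (76.2%), 7 lower and 9 higher in frame. TCRBV15 had the 4th lowest difference of the 21 in percentage points, which grow with the share of a family. By the ratio of the in-frame to the out-of-frame share (0.706) it was 6th lowest. The difference was -1.33 points in the 15 treatment mice (permutation p = 0.00022) and -1.46 in the 12 rechallenge mice (permutation p = 0.00041). Over the first blood library of each mouse it was -1.07. These shares also move with expanded clones in blood, and the cause of the difference was not tested.

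**Figure D4:**
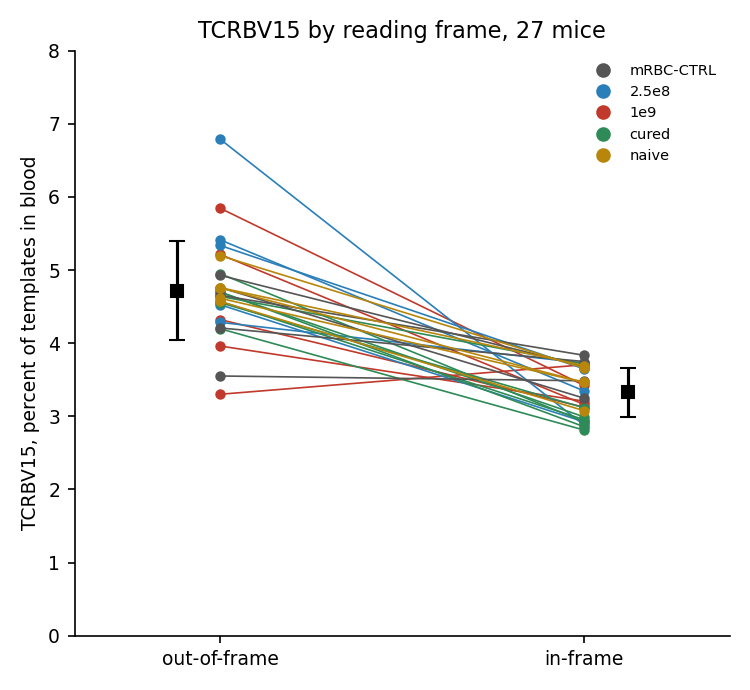
Share of TCRBV15 (%) among in-frame templates (without OT-1 and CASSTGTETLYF) and among out-of-frame templates in blood. Each line is 1 of 27 mice, averaged over its blood libraries, and black squares with bars are the mean ± SD. The in-frame values lie between 2.81 and 3.83% and the out-of-frame values between 3.30 and 6.79%.

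TCRBV15 joined the J segments unevenly. In blood, TCRBJ02-07 took 31.9% ± 3.76 (SD, n = 27 mice) of its remaining templates, followed by TCRBJ01-01 with 10.8% ± 1.82 and TCRBJ02-01 with 10.4% ± 2.51. The last was TCRBJ02-06 with 0.00244% ± 0.0127. TCRBJ02-03, the J segment of the shared tumor clone, took 7.72% ± 1.68, beside 6.80% ± 0.542 over all other V families. The TCRBJ02 cluster as a whole took 70.0% ± 4.42 of TCRBV15 templates and 64.8% ± 1.60 of those of other V families (SD, n = 27 mice). This difference of 5.20 percentage points (SE 1.00) held in 24 of 27 mice (sign-flip permutation test, p = 0.0001, adjusted p = 0.00021). Of the 21 families, 17 passed this test (81%), 9 with a higher and 8 with a lower share of TCRBJ02, and 3 of the 21 had a larger positive difference than TCRBV15.

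**Figure D5:**
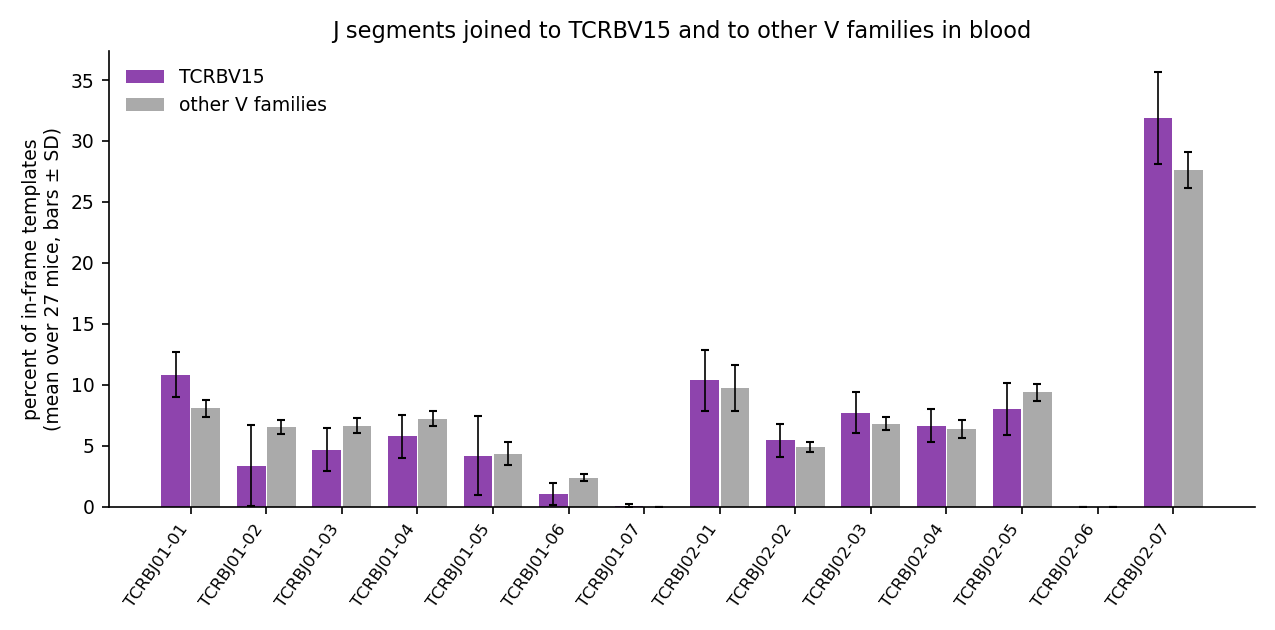
Share (%) of each J segment among in-frame blood templates, without OT-1 and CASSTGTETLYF, for TCRBV15 and for all other V families together. Bars are means over 27 mice and error bars are SD, drawn no lower than 0. TCRBJ02-07 is the highest for both, at 31.9 and 27.6%.

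The CDR3s of TCRBV15 were shorter than those of the other V families in blood, with means of 13.49 ± 0.122 and 13.82 ± 0.0322 amino acids (SD, n = 27 mice). The difference of -0.338 amino acids (SE 0.0236) held in 27 of 27 mice (sign-flip permutation test, p = 1e-05, the smallest these resamples can give; adjusted p = 1.91e-05), and 17 of 21 families passed this test (81%), 10 shorter and 7 longer. Only 2 of the 21 families had a more negative difference. As a description over rearrangements, TCRBV15 had lost 4.04 bases of its V segment on average, beside 2.57 in the other families, and carried 3.30 added bases beside 3.42. Rearrangements without any added base made up 10.8% ± 2.00 of TCRBV15 and 8.72% ± 0.309 of the others (SD, n = 27 mice).

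Some TCRBV15 CDR3s recurred between mice. The 5 found in the blood of the most mice were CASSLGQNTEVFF (13 of 27 mice), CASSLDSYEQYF (11), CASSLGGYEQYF (11), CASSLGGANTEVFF (10) and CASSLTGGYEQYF (8), the last being 1 of 6 CDR3s found in 8 mice and taken for its higher number of templates. They held 22, 25, 23, 13 and 19 blood templates in all, and no form of them held more than 3 templates in a blood library. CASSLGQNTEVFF was written by 13 different nucleotide forms. The most abundant of these is shown because it needs no bases added at the V-D or D-J joints, the capitals being D-segment bases.
most public TCRBV15 CDR3 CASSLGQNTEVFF: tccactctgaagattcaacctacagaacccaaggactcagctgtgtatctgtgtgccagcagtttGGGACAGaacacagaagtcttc

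Recurrence was otherwise rare. Of 9536 different TCRBV15 CDR3s in blood, 0.734% were found in at least 5 mice and 89.6% in 1 mouse. In TCRBV16, the next gene in the locus, these were 0.847 and 88.6% of 15229 CDR3s, and in TCRBV14, on its other side, 0.216 and 91.7% of 8342. The families differ in their number of CDR3s, which such percentages can depend on. In TCRBV20 (9573 CDR3s) and TCRBV26 (9446), which are closer in number to TCRBV15, 0.815 and 0.646% were found in at least 5 mice. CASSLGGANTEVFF was also found in 5 of 15 tumors. Over the 66 blood libraries, the families whose share followed that of TCRBV15 most closely were TCRBV03 (Spearman's rho 0.354), TCRBV23 (0.303) and TCRBV01 (0.260). These are weak and descriptive: libraries of 1 mouse are not independent, and all families share 1 total.

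Out-of-frame TCRBV15 templates made up 1.77 to 32.4% of out-of-frame templates in tumors, with a median of 2.92%, and 3.07 to 9.47% in blood. The highest tumor value was that of 2.5e8 mouse 1, in which 1 rearrangement with TCRBJ01-03 held 1262 templates, 26.0% of all out-of-frame templates of the library. It is shown because it exceeds every other TCRBV15 rearrangement that is out of frame.
largest out-of-frame TCRBV15, 2.5e8 tumor mouse 1: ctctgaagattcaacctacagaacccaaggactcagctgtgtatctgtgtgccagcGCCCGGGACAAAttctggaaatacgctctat

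The same rearrangement held 73 templates in the day 7 blood of this mouse, 0 in its day 0 blood and 0 in all other animals. The next in size were a rearrangement with TCRBJ02-05 in mRBC-CTRL tumor mouse 4 (279 templates, 5.90% of out-of-frame templates, 7 templates in day 7 blood) and 1 with TCRBJ02-07 in mRBC-CTRL tumor mouse 1 (95 templates, 2.11%). Counting each rearrangement once and leaving out near copies of both clones, TCRBV15 made up 2.20 to 6.36% of out-of-frame rearrangements in the 15 tumors.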

How the data were processed

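TCRβ CDR3 regions were sequenced from genomic DNA of 81 blood and tumor samples with the immunoSEQ assay. Per the file headers and the study's methods, the authors deposited, for each rearrangement of a library, its V and J assignment, its frame and its count of templates, after collapsing and filtering of reads by the assay's provider and without normalization. The aligner and genome build are not given in the sources used here. A V family was missing for 4 templates.

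Template counts were summed per V family over in-frame rows without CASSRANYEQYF (OT-1) and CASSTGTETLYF, and that sum was the library size, without TMM. Families with at least 10 templates in as many libraries as the smaller group holds were tested with edgeR's quasi-likelihood test (robust) and Benjamini-Hochberg adjustment, with a threshold of 0.05. Comparisons within mice (tumor against day 7 blood, and between days) carried the mouse as a block, since the samples come from the same animals by their labels. Deviations of samples of 1 animal from their group means correlated at -0.655 to 0.869 (46 pairs, median 0.265). Shares were compared with 2-sided exact permutation tests between groups or exact sign-flip tests within mice. Blood values per mouse (27 mice) were tested with 100000 sign flips and adjusted over 21 families. Intervals are 95% Wilson intervals, and a count of 0 was read as allowing 3 templates. Both cover counting error only, so deeper libraries bound a share more tightly.

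Near copies were found by edit distance (at most 3) or identity of the last 30 bases. The members and lists were chosen with earlier results of these data known. The rearrangements and families named follow a fixed rule. It takes forms of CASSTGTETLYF in at least 2 libraries, the 3 closest CDR3s with most templates, and the 5 CDR3s in most mice. It also takes the largest CDR3 per arm's tumors and in blood, rearrangements shared by tumors, the 3 most similar families, and the first 3 and last J segments. Of the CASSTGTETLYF forms in at least 2 libraries (50), those with the most templates are described. The largest out-of-frame rearrangements and the CDR3 of mRBC-CTRL tumor mouse 3 fall outside the rule and were named after their values were seen. Cured mouse 2 on day 73 was assigned by its animal code, because the wording of its title names mouse 1.

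The alternatives tried were TMM, no filter, rearrangements counted once, near variants left out, OT-1 and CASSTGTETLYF kept in the library size, rearrangements with 1 template left out, DESeq2, exact tests, the replicate block or its absence, each mouse left out, and subsets of the mice. Leaving out near copies was added after the data were seen. The fits were tested on simulated data for cured against naive blood on day 65 and for tumor against day 7 blood. The simulated libraries came from a common family profile with planted changes, without mouse effects or expanded clones. They therefore do not test the mouse block or tumors in which a single clone is large. The comparisons between arms were not simulated. R 4.3.3, edgeR 4.0.16, limma 3.58.1, DESeq2 1.42.0, Python 3.11.15, NumPy 2.4.6, pandas 2.3.3 and SciPy 1.17.1 were used.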

Additional observations from a re-analysis of the deposited data

Results flagged for a closer look

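In 48 tests of 4 measures over 15 groups of 4 to 7 libraries, with 1 measure tested in tumors only, 3 values stood apart from the others of their group by Dixon's criterion at the 95% level, which chance alone meets in about 1 in 20 tests. The share of TCRBV15 in the remaining in-frame templates was 16.6% in the tumor of mRBC-CTRL mouse 2 and 1.26 to 3.42% in the other mRBC-CTRL tumors. A single CDR3 with TCRBJ02-01 held 15.4% of the remaining templates of that tumor. The TCRBV15 share of out-of-frame templates was 32.4% in the tumor of 2.5e8 mouse 1 and 1.77 to 6.98% in the other tumors of that arm. It was 9.47% in the day 7 blood of the same mouse and 4.41 to 5.51% in the others. A single rearrangement with TCRBJ01-03 held 1262 templates in the tumor and 73 in the blood of that mouse. None of 7 differences between arms in the change of the TCRBV15 share passed an exact permutation test.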

How the results depend on the processing

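Of 161 recomputed values for 17 results, 142 kept their direction and side of the threshold, as did 112 of 118 with 1 mouse left out, and 6 results did so under every alternative run. For 1e9 against mRBC-CTRL tumors, DESeq2 gave a log2 fold change of -2.12 (adjusted p = 0.0375), and leaving out single mice gave -1.82 to -0.14. For 2.5e8 against mRBC-CTRL tumors, DESeq2 gave -2.46 (adjusted p = 0.0221), and leaving out rearrangements with 1 template gave -2.61 (adjusted p = 0.0346). Leaving out single mice gave -2.35 to -0.75, the latter without mRBC-CTRL mouse 2, and the call was made without mRBC-CTRL mouse 4 or 5 (edgeR, adjusted p = 0.0313 and 0.0345). For tumor against day 7 blood, the call was lost with TMM (-0.39), with DESeq2 (-0.32), without the replicate block (-0.26, adjusted p = 0.654) and in the exact sign-flip test (-0.523 percentage points, p = 0.787). Keeping OT-1 and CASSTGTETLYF in the library size gave -1.67 (adjusted p = 2.9e-05) for day 7 blood at 1e9 against mRBC-CTRL and -1.45 (adjusted p = 0.0383) for day 7 against day 0 at 1e9. It turned day 73 against day 65 in cured mice to -0.39 (adjusted p = 0.0292) and, among differences not called in either fit, day 73 against day 65 in naive mice to 0.13, 1e9 against 2.5e8 tumors to -0.41, cured against naive mice on day 65 to 0.026, and day 7 against day 0 to 0.21 in mRBC-CTRL and 0.014 in 2.5e8 mice. By construction these values move with OT-1 and, in tumors, also with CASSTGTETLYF. Other uncalled differences also changed sign. Leaving out rearrangements with 1 template gave 0.072 for cured against naive mice on day 65, and -0.035 in cured and 0.17 in naive mice for day 73 against day 65. Counting rearrangements once gave -0.020 for 1e9 against 2.5e8 tumors. Leaving out single mice gave -0.024 to 0.029 in cured and -0.066 to 0.035 in naive mice for day 73 against day 65. For these and the tumor values the cause was not tested.

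Between groups, the mouse number as a replicate block changed no call, and gave -0.75 and -1.28 for 1e9 and 2.5e8 against mRBC-CTRL tumors. Different animals share only that number, and their deviations correlated at -0.547 to 0.670 (33 pairs, median 0.176).

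The number of families called moved by over 1.5 times in several comparisons. With DESeq2, TMM and rearrangements counted once, in this order, it was 3, 1 and 0 for 1e9 against mRBC-CTRL tumors (0 by edgeR), 4, 0 and 0 for 2.5e8 (2), and 2, 2 and 11 for tumor against day 7 blood (9). It was 1, 1 and 7 for day 7 against day 0 at 2.5e8 (2), 0, 3 and 2 at 1e9 (4), and 0, 1 and 0 in mRBC-CTRL mice (1). In day 7 blood against mRBC-CTRL it was 2, 0 and 2 at 1e9 (2) and 2, 0 and 0 at 2.5e8 (0). In the rechallenge experiment it was 0, 0 and 2 for cured against naive mice on day 73 (0), 0, 1 and 0 for day 73 against day 65 in cured mice (0) and 0, 1 and 1 in naive mice (1). Depth limits the tumor shares, since the 15 tumors held 14 to 1902 other TCRBV15 templates each.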
